A study of Mus musculus with 2 samples.

Results

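The genes described here are 9 genes of heme and iron handling, chosen by symbol in the deposited gene table, which lists 31053 genes in all: Cd163, Hmox1, Blvrb, Slc40a1, Fth1, Ftl1, Slc11a1, Tfrc and Hebp1. All 9 were found, and their raw counts of unique molecular identifiers (UMIs, each standing for 1 captured RNA molecule) were read in every cell that had at least 500 genes detected and less than 10% of its UMIs from mitochondrial genes. These cells numbered 1755 of 2214 barcodes in the diabetic library and 1123 of 2026 barcodes in the non-diabetic library. The diabetic library held monocytes and macrophages from skin wounds of diabetic mice, and the non-diabetic library the same kind of cells from non-diabetic mice, all taken on day 6 after injury. The 3′ RNA of single cells was captured on the 10x Chromium platform. Each library pooled cells of 2 mice, and the labels speak of strains without naming them or the model of diabetes. With 1 library per group there is no replicate check and no test, and a strain difference cannot be told apart from diabetes. Each interval given is a 95% interval of counting error, which leaves out the spread between animals and between cells.

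Macrophages take up the hemoglobin and heme of damaged red cells, and wounds that have bled are a usual place for this. Hemoglobin bound to haptoglobin enters through the receptor CD163, heme oxygenase 1 opens the heme ring to give biliverdin, carbon monoxide and iron, and biliverdin reductases turn biliverdin into bilirubin. The iron is stored inside ferritin shells, made of heavy and light chains, or leaves through the exporter ferroportin, while transferrin receptor 1 brings in iron from plasma. Iron regulatory proteins tie these steps together: when iron is scarce they bind a hairpin in the RNA, the iron-responsive element, which blocks translation from a 5′ untranslated region (UTR) and protects the RNA from decay in a 3′ UTR.

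The iron-responsive elements of the members are shown because they divide the genes into those whose protein is set at translation, which RNA counts do not show, and Tfrc, whose RNA itself is protected. They were found as a C, any 5 bases (N) and the letters CAGTGN, read on the transcript strand, followed by 5 bases that pair with the 5 bases before the loop, G-T pairs allowed. Capitals mark the bulged C and the loop, and each site is 29 bases long, 5′ to 3′, from GENCODE M21 transcripts on mm10.
Fth1 5′ UTR, bases 87 to 115 of transcript Fth1-201: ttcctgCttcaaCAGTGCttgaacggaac
Ftl1 5′ UTR, bases 78 to 106 of transcript Ftl1-201: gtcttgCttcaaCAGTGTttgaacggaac
Slc40a1 5′ UTR, bases 90 to 118 of transcript Slc40a1-201: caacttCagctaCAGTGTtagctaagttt
Tfrc 3′ UTR, bases 3315 to 3343 of transcript Tfrc-201: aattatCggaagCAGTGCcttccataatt
Tfrc 3′ UTR, bases 3694 to 3722 of the same transcript: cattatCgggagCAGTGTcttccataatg
Tfrc 3′ UTR, bases 3759 to 3787 of the same transcript: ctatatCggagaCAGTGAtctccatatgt
Tfrc 3′ UTR, bases 3806 to 3834 of the same transcript: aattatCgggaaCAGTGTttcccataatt

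Both ferritin chains and the exporter gene carried 1 element in the 5′ UTR, and Tfrc carried 4 in the 3′ UTR. The same letters and pairing stood in the 5′ UTR of 31 of 20916 genes (0.148%) and in the 3′ UTR of 129 of 21039 genes (0.613%). No match lay in the UTRs of Cd163, Hmox1, Blvrb, Slc11a1 or Hebp1. A match describes the sequence and not its use in these cells.

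The cells carried markers of their label. A UMI of Csf1r, the receptor of macrophage colony-stimulating factor, was found in 95.2% of diabetic and 87.3% of non-diabetic cells. The median depth was 16314 UMIs per diabetic cell and 14079 per non-diabetic cell. Hemoglobin RNA, the mark of red cell precursors and young red cells, was nearly absent: the 4 hemoglobin chain genes read (Hba-a1, Hba-a2, Hbb-bs and Hbb-bt) summed to 34 UMIs in the diabetic and 6 UMIs in the non-diabetic cells. Of the barcodes, 6 occurred in both libraries, 1 of them among the kept cells.

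Summed over all cells, 6 of the 9 genes were at least 1.5-fold higher in the diabetic library and 0 were lower, the fold used throughout to call a gene higher or lower. Among all 12337 genes with at least 20 UMIs over both libraries, 18.7% were higher by the same rule and 12.9% were lower (2313 and 1586 genes). Scaled by DESeq2 size factors instead, 1770 genes were higher and 1963 lower, and by TMM, a trimmed mean of gene ratios, 1796 and 1937; 5 members were higher under each. In the barcodes that failed the cell filter (459 diabetic and 903 non-diabetic), 4 of the 9 members were higher and 0 lower, where 20.7% of 8286 measured genes were higher and 18.2% lower. The median log2 ratio of diabetic over non-diabetic was 1.13 over the members and 0.12 over all measured genes. Levels are given in CPM, the UMIs of a gene scaled to 1000000 UMIs of the library or group of cells. A 3′ UMI count is not scaled by transcript length, so the differences between genes in level are read as counts of captured molecules.

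Cd163, the hemoglobin-haptoglobin receptor (chr6:124304656-124330527, + strand), had 243 CPM in the diabetic library (7400 UMIs, interval 238 to 249) and 8.36 CPM in the non-diabetic library (129 UMIs, 6.98 to 9.93). The ratio was 29.0-fold (24.4 to 34.9), above that of 99.6% of measured genes. A Cd163 UMI was found in 19.5% of diabetic cells and 2.85% of non-diabetic cells. In cells with any, the median was 6 UMIs and the highest 143 in the diabetic library, against a median of 1 and a highest of 27 in the non-diabetic library, so the libraries differed both in how many cells held the RNA and in how much these cells held. Hebp1, which encodes a heme-binding protein of the cytosol (chr6:135137522-135198022, - strand), had 212 CPM in the diabetic library (6456 UMIs) and 8.81 CPM in the non-diabetic library (136 UMIs), a ratio of 24.0-fold (20.3 to 28.7). Its pattern over cells was unlike that of Cd163: 83.9% of diabetic cells and 9.62% of non-diabetic cells had a UMI, and the highest counts in a cell were 30 and 5.

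The heme-degrading genes were higher by less. Hmox1, heme oxygenase 1 (chr8:75093621-75100589, + strand), had 963 CPM in diabetic cells against 641 CPM in non-diabetic cells, a ratio of 1.504-fold (1.47 to 1.54) that lies on the threshold and stayed at or above it under 5 of 12 other ways of processing. Blvrb, biliverdin reductase B (chr7:27447978-27466144, + strand), had 274 CPM in diabetic cells against 90.02 CPM in non-diabetic cells, a ratio of 3.04-fold (2.87 to 3.22). A Blvrb UMI was found in 78.4% of diabetic and 52.1% of non-diabetic cells, and a Hmox1 UMI in 86.2% and 77.7%. Both genes were thus read in most cells of each library, and Cd163 in a minority.

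Of the iron genes, the ferritin chains were the most abundant and among the least different. Fth1, the heavy chain that oxidises iron (chr19:9980598-9985098, + strand), had 19453 CPM in diabetic cells against 16667 CPM in non-diabetic cells, a ratio of 1.17-fold. Ftl1, the light chain (chr7:45457944-45459884, - strand), had 11120 CPM in diabetic cells against 8007 CPM in non-diabetic cells, a ratio of 1.39-fold. The Ftl1 values carry an uncertainty: 7 annotated genes hold a stretch of at least 200 bases at 95% identity or more with it, of which 2 are in the gene table, and reads may have been split between them. Ftl1-ps1, which of the pair in the table has the longer match (910 bases at 99.6% identity), was counted at 128 CPM in diabetic cells against 86.7 CPM in non-diabetic cells. No other member had such a copy.

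Slc11a1, the metal transporter of the phagosome membrane (chr1:74375195-74386062, + strand), had 216 CPM in diabetic cells against 174 CPM in non-diabetic cells, a ratio of 1.24-fold. Tfrc, transferrin receptor 1 (chr16:32608920-32632794, + strand), had 21.8 CPM in diabetic cells against 9.92 CPM in non-diabetic cells, a ratio of 2.19-fold (1.84 to 2.64). Its log2 ratio was 1.13, but 0.35 after every cell was thinned to 5000 UMIs, 0.57 as a mean over cells and 0.50 without the clusters over 90% from 1 library, short of the threshold. Slc40a1, ferroportin (chr1:45908068-45926523, - strand), was the rarest member, with 132 UMIs (4.34 CPM) in the diabetic and 16 UMIs (1.04 CPM) in the non-diabetic library, a ratio of 4.07-fold (2.48 to 7.53). Its UMIs lay in 36 diabetic and 6 non-diabetic cells.

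**Figure D1:**
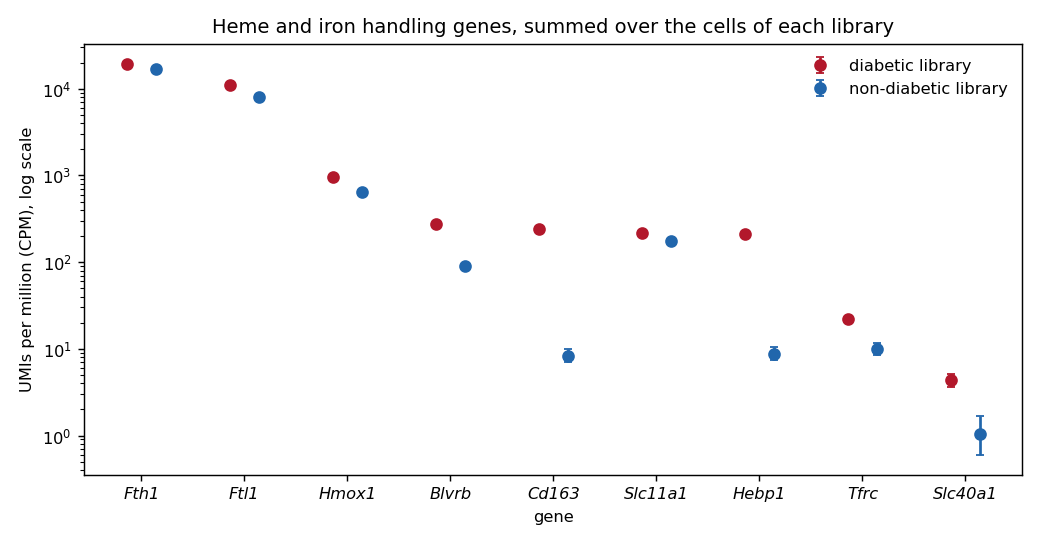
CPM (log axis) of each member summed over the 1755 cells of the diabetic library (left point of each pair) and the 1123 cells of the non-diabetic library (right point), with exact 95% Poisson intervals of counting error. The pairs of Cd163 (243 and 8.36 CPM) and Hebp1 (212 and 8.81 CPM) stand far apart, and those of the ferritin chains lie close together.

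To describe the members by cell state, the cells of both libraries were clustered together without the 9 members and without the 66 genes of the wider lists, so that no member placed its own cells. The 16 clusters are called by their leading gene, or "like" a cell type where marker lists allowed it. In 11 of them 1 library supplied over 90% of the cells, so for most clusters state and library cannot be told apart. Counting a cluster once per library where that library gave it 30 cells or more, there were 18 groups of cells, 11 diabetic and 7 non-diabetic, and highest, lowest and next refer to these 18.

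Cd163 belonged above all to the macrophage-like cluster, led by Tmem8, Folr2 and Gas6, which held 215 diabetic and 27 non-diabetic cells and 8 of the 12 macrophage markers. Cd163 had 1360 CPM (1326 to 1394) in its diabetic cells and 222 CPM in its 27 non-diabetic cells. Among the groups of at least 30 cells the next highest were the diabetic Nrg1-led cells at 71.5 CPM and the diabetic Stfa3-led cells at 69.6 CPM, so the first stood 19.0-fold above the second; the 16 diabetic cells of a neutrophil-like cluster had 281 CPM. The macrophage-like cluster held 85.4% of all diabetic Cd163 UMIs with 15.3% of the diabetic UMIs of all genes. After every cell was thinned to 5000 UMIs, a Cd163 UMI was found in 68.1% of diabetic (interval 61.3% to 74.3%) and 32% of non-diabetic (8 of 25) macrophage-like cells. It was found in 11.4% of the Stfa3-led (8.07% to 15.5%) and 7.17% of the Nrg1-led diabetic cells (4.55% to 10.6%). In dendritic cell-like cells the share was 3.51% of diabetic (0.428% to 12.1%) and 1.74% of non-diabetic cells at the same depth. The Nrg1-led and Stfa3-led intervals overlap that of the diabetic dendritic cell-like cells (2 of 57 cells), which does not decide whether the shares differ. The Stfa3-led interval lies above that of the non-diabetic dendritic cell-like cells (0.211% to 6.14%), which the Nrg1-led interval overlaps. Summed Cd163 was at 7.17 CPM (3.10 to 14.1) in diabetic dendritic cell-like cells, below the Stfa3-led and Nrg1-led levels. After thinning, 3 or more Cd163 UMIs occurred in 12 Stfa3-led, 7 Nrg1-led and 0 dendritic cell-like cells.

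Hmox1 was broader. Among the groups of at least 30 cells it was highest in the diabetic macrophage-like cells at 2018 CPM (1977 to 2059) and the diabetic Stfa3-led cells at 1696 CPM (1663 to 1728), and lowest in the non-diabetic dendritic cell-like cells at 40.7 CPM. The 27 non-diabetic macrophage-like cells, short of that size, had more, at 2454 CPM (2308 to 2606). In the middle lay the non-diabetic Chil3-led cells at 933 CPM and the non-diabetic Inhba-led cells at 911 CPM, whose intervals overlap, and the diabetic Nrg1-led cells at 830 CPM. The classical monocyte-like cells were low, at 184 CPM in diabetic and 214 CPM in non-diabetic cells.

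Blvrb was highest in the diabetic Stfa3-led cells at 549 CPM (530 to 567), followed by the diabetic Lpl-led cells at 471 CPM and the diabetic macrophage-like cells at 468 CPM, which differ by less than counting error. The median over the 18 groups was 101 CPM. Slc40a1 had 23.7 CPM (19.5 to 28.5) in the diabetic macrophage-like cells, 2.59 CPM in the diabetic Stfa3-led cells and under 1 CPM in every other group of at least 30 cells. The macrophage-like cluster held 110 of its 132 diabetic UMIs, and 5 cells held 75 of those 110, so its level rests on a handful of cells. The 27 non-diabetic cells of the cluster, short of that size, held 14 of the 16 non-diabetic Slc40a1 UMIs. Their level was 32.3 CPM, and the ratio of diabetic over non-diabetic was 0.71-fold, with an interval (0.42 to 1.38) that spans 1.

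**Figure D2:**
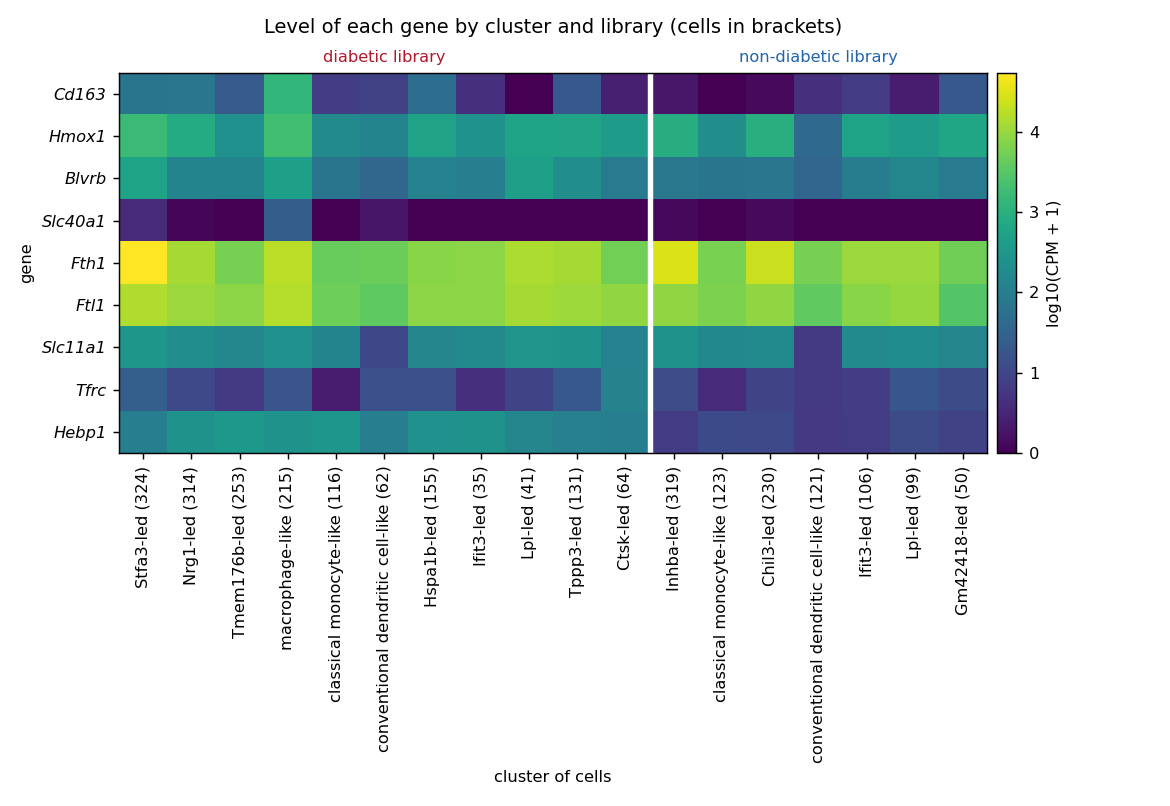
Level of each member, as log10(CPM + 1), in each cluster with at least 30 cells of a library, diabetic on the left and non-diabetic on the right, with the number of cells in brackets. Cd163 and Slc40a1 peak in the diabetic macrophage-like column (1360 and 23.7 CPM), Fth1 in the Stfa3-led column, Tfrc in the Ctsk-led column, and Hebp1 differs between the libraries as a whole.

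The ferritin chains were read in nearly every cell but in unequal proportion. Fth1 reached 54502 CPM in the diabetic Stfa3-led cells, against 29427 CPM in the next group, the non-diabetic Inhba-led cells, 22426 CPM in the non-diabetic Chil3-led cells and a median of 9331 CPM over the 18 groups. The Stfa3-led cells held 56.8% of all diabetic Fth1 UMIs with 20.3% of the UMIs of all genes. Ftl1 varied less: among the same 18 groups it was highest in the diabetic macrophage-like cells at 16372 CPM and in the Stfa3-led cells at 14666 CPM, with a median of 8443 CPM. The 27 non-diabetic macrophage-like cells had 19239 CPM (18828 to 19656).

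The ratio of heavy to light chain UMIs was 3.72 in the diabetic Stfa3-led, 3.30 in the non-diabetic Inhba-led and 2.48 in the non-diabetic Chil3-led cells. It was 1.07 in the diabetic macrophage-like cells, and lowest in the diabetic Ctsk-led cells at 0.622 and the diabetic Tmem176b-led cells at 0.705. The 2 chains together made up 6.92% of all UMIs in the Stfa3-led cells, against 3.06% in the whole diabetic and 2.47% in the whole non-diabetic library. More Fth1 than Ftl1 UMIs were therefore counted in clusters of either library. Given the near copies of Ftl1 and the control at translation, these ratios compare clusters and do not give the proportion of the chains. Among the 18 groups the diabetic macrophage-like cells had the highest Ftl1 level, with a ratio near 1. The Stfa3-led cells had the next highest, with the highest ratio.

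The Stfa3-led cluster, led by Stfa3, Lcn2 and S100a8, held 324 diabetic and 1 non-diabetic cells. The library difference of Fth1 turned on it: without this cluster the log2 ratio of Fth1 was -0.66, against 0.22 with it, and without the Inhba-led cluster it was 0.64. Without the Stfa3-led cells the log2 ratio of Hmox1 was 0.28 and that of Blvrb 1.19. In the Stfa3-led cells the 10 neutrophil markers summed to 17598 CPM, with 9 of 10 detected, against 14.0 to 1178 CPM in the other groups of at least 30 cells; S100a8 alone gave 16598 CPM. Of the genes read singly, Ly6g was at 0, and Camp, Ngp and Cxcr2 had 2, 1 and 3 UMIs. Retnlg had 6.15 CPM, against 4060 CPM in the 16 cells of the neutrophil-like cluster. S100a9 went the other way, at 711 CPM, with 179 CPM in the next group, the diabetic classical monocyte-like cells. A Csf3r UMI was found in 58.3% of the Stfa3-led and 77.2% of the diabetic macrophage-like cells. In the cluster 3 of the 10 neutrophil markers were raised, a share too small for the naming rule. A Csf1r UMI was found in 90.7% of the Stfa3-led cells and in 25% of the neutrophil-like cells. The part of these genes in the Fth1 level was not tested.

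**Figure D3:**
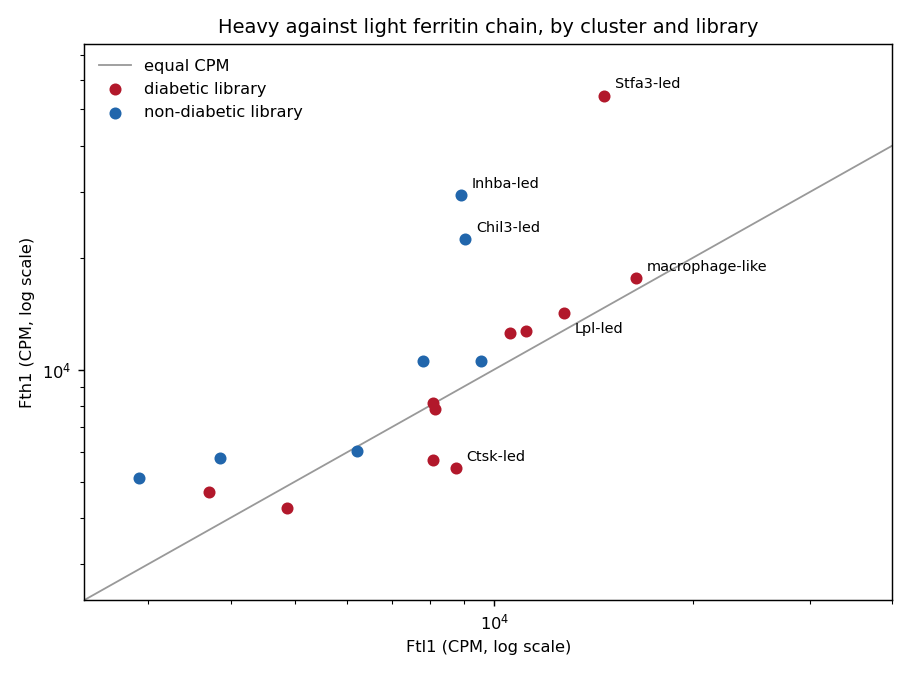
Fth1 against Ftl1, in CPM on log axes, for the 18 groups of cells, with a line of equal CPM. The Stfa3-led, Inhba-led and Chil3-led points lie above the line (3.72, 3.30 and 2.48 heavy chain UMIs per light chain UMI), and the macrophage-like point near it (1.07).

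Slc11a1 separated the dendritic cell-like cells from the rest. It had 9.86 CPM in their diabetic and 5.51 CPM in their non-diabetic cells, against 127 to 323 CPM in the other 16 groups, with the highest level in the diabetic Stfa3-led cells. Tfrc was highest in the diabetic Ctsk-led cells at 133 CPM (117 to 150), a cluster led by the osteoclast genes Ctsk, Atp6v0d2 and Acp5. The next group, the diabetic Stfa3-led cells, had 26.6 CPM, and the lowest, the diabetic classical monocyte-like cells, had 1.27 CPM. The 64 Ctsk-led cells held 38.0% of the diabetic Tfrc UMIs.

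Among the groups of at least 30 cells, Hebp1 differed more between the libraries than between the clusters of 1 library. It ranged from 106 to 332 CPM over the 11 diabetic groups (median 252) and from 5.08 to 11.4 CPM over the 7 non-diabetic groups (median 7.64). The ranges did not overlap: the lowest diabetic group was the Stfa3-led cells and the highest non-diabetic group the Lpl-led cells. Smaller sets of non-diabetic cells had more, from few UMIs. Hebp1 was at 25.4 CPM in the 27 macrophage-like, 21.9 CPM in 15 Tmem176b-led and 43.2 CPM in 13 Hspa1b-led non-diabetic cells (11, 3 and 7 UMIs). Within the diabetic library the Tmem176b-led cells at 332 CPM and the classical monocyte-like cells at 302 CPM were highest, and the Stfa3-led, Ctsk-led and dendritic cell-like cells were all at 106 to 107 CPM. The groups of 1 library share that library, so they are not replicates of the condition.

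Within a cluster the libraries can be set side by side at a more similar cell state. In 4 clusters each library had 30 cells or more, and the macrophage-like cluster, with 27 non-diabetic cells, was added after the data were seen. In the macrophage-like cluster 2 of 9 members were higher and 1 was lower in diabetic cells, where 13.8% of 9229 measured genes were higher and 23.8% lower. Cd163 had 6320 UMIs in the diabetic and 96 in the non-diabetic cells, a ratio of 6.11-fold (5.02 to 7.59), and Hebp1 had 269 and 25.4 CPM, a ratio of 10.1-fold (5.89 to 21.3). Hmox1 had 2018 CPM in diabetic and 2454 CPM in non-diabetic macrophage-like cells, Blvrb 468 and 439 CPM, Fth1 17593 and 23774 CPM, and Ftl1 16372 and 19239 CPM, all short of 1.5-fold. Slc40a1 had 23.7 and 32.3 CPM, from 110 and 14 UMIs, with an interval of the ratio (0.42 to 1.38) that spans 1. The lower member was Tfrc, with 78 and 11 UMIs and an interval of the ratio (0.35 to 1.38) that spans 1. So the higher Hmox1, Blvrb, Slc40a1 and Tfrc of the whole diabetic library were not seen within this cluster taken as a whole. The higher Cd163 and Hebp1 were seen in it. The finer parts of the cluster, given below, differed from each other in Hmox1 and Blvrb.

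Among the classical monocyte-like cells 1 of 6 measured members was higher and 0 were lower, where 11.2% of measured genes were higher and 12.1% lower. That member was Hebp1, with 302 CPM in diabetic and 10.5 CPM in non-diabetic cells, a ratio of 28.1-fold (18.4 to 47.55). Among the conventional dendritic cell-like cells 4 of 7 measured members were higher and 0 lower, where 10.6% of measured genes were higher and 15.4% lower. They were Hebp1 (20.2-fold, 11.6 to 41.8), Hmox1, Tfrc (2.43-fold, from 15 and 13 UMIs) and Slc11a1 (1.80-fold, from 11 and 13 UMIs, with an interval that spans 1). Hmox1 had 136 CPM in diabetic and 40.7 CPM in non-diabetic dendritic cell-like cells, a ratio of 3.35-fold (2.58 to 4.37).

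Among the Ifit3-led cells, led by interferon-induced genes, 1 of 6 measured members was higher and 1 lower, where 15.6% of measured genes were higher and 13.2% lower. Hebp1 was 43.9-fold higher (23.02 to 110) and Hmox1 was lower, at 262 CPM in diabetic and 568 CPM in non-diabetic cells, a log2 ratio of -1.11 (-1.38 to -0.87). Among the Lpl-led cells 2 of 7 measured members were higher and 1 lower, where 21.9% of measured genes were higher and 16.9% lower. Hebp1 was 12.02-fold higher (7.29 to 22.3), Blvrb had 471 CPM in diabetic and 146 CPM in non-diabetic cells (3.23-fold, 2.72 to 3.84), and Tfrc had 7 and 25 UMIs with an interval that spans 1. Over the 4 clusters Hebp1 was higher in 4, Fth1 and Ftl1 in 0, Blvrb in 1, and Hmox1 was higher in 1 and lower in 1.

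**Figure D4:**
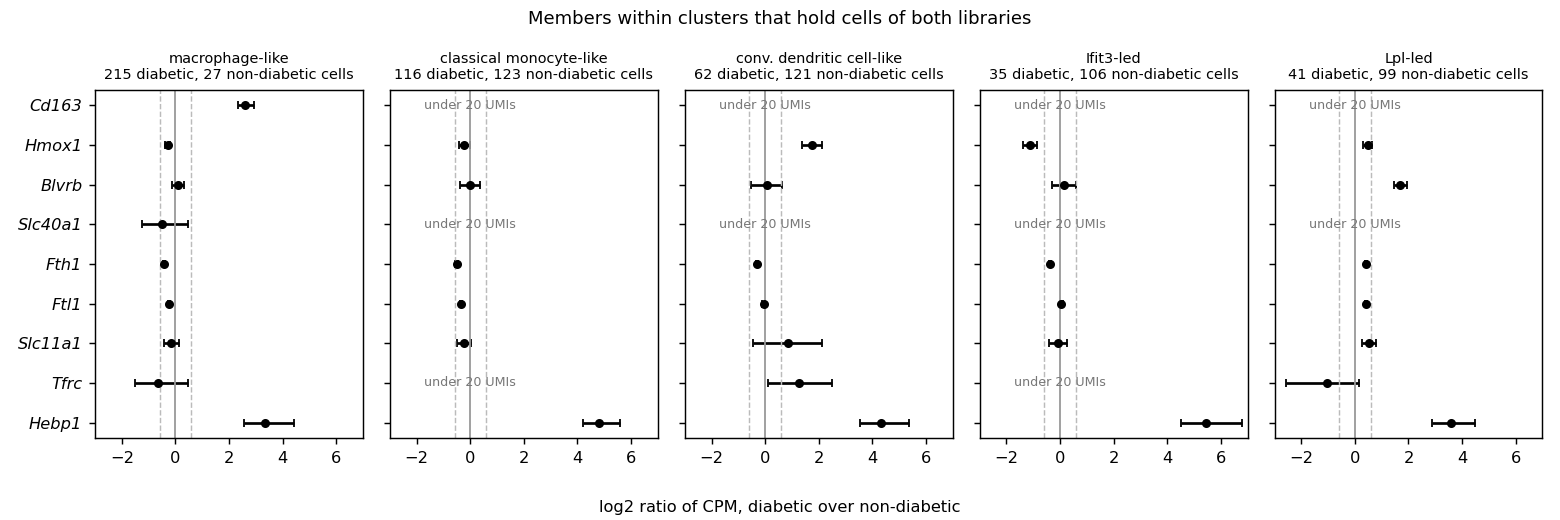
Log2 ratio of CPM, diabetic over non-diabetic, of each member within 5 clusters, with the number of cells of each library above; bars are 95% intervals of counting error, the solid line is 0 and the dashed lines are 1.5-fold. Hebp1 lies right of the line in all 5 panels (10.1-fold to 43.9-fold), Cd163 could be measured in the macrophage-like panel only, and Hmox1 lies right in the dendritic cell-like and left in the Ifit3-led panel.

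To see which members went together with Cd163 in the same cells, each cell was thinned to 5000 UMIs and the diabetic cells were split by their thinned Cd163 UMIs. Of 1661 diabetic cells deep enough, 1421 had 0, 94 had 1 to 2 and 146 had 3 or more; 94 cells were too shallow. In the non-diabetic library 6 of 982 cells had 3 or more, so it was not split. Of the other 8 members, 3 were at least 1.5-fold higher in the cells with 3 or more than in the cells with 0, and 0 were lower; of 9660 measured genes 18.5% were higher and 15.6% lower. Hmox1 had 1784 CPM in the cells with 3 or more and 725 CPM in the cells with 0 (2.46-fold, 2.31 to 2.62), and Blvrb 427 and 230 CPM (1.86-fold, 1.64 to 2.10). Slc40a1 had 9 and 16 UMIs, a ratio of 5.60-fold (2.13 to 13.2). Ftl1 was 1.34-fold, Hebp1 1.23-fold, Slc11a1 1.21-fold and Fth1 1.02-fold as high in the cells with 3 or more, and Tfrc 0.82-fold.

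Inside the macrophage-like cluster these differences between cells with 3 or more and cells with 0 were not seen. Of the 146 cells with 3 or more Cd163 UMIs, 121 were in that cluster. There, against its 67 cells with 0, 0 of 7 measured members were higher and 1 was lower, where 11.4% of 5353 measured genes were higher and 15.1% lower. Hmox1 was 1.09-fold (0.99 to 1.21) and Blvrb 1.15-fold as high, Ftl1 was 0.80-fold, and Slc40a1 had 14.9 CPM in the cells with 3 or more and 44.8 CPM in the cells with 0, from 9 and 15 UMIs. The 22 cells of the cluster with 1 to 2 Cd163 UMIs had 2609 CPM of Hmox1, 1.54-fold (1.33 to 1.78) the level of its cells with 0. Blvrb was 1.21-fold as high in these 22 cells, with an interval that spans 1. Outside the cluster, 25 cells had 3 or more, and 1 of 7 measured members was higher and 0 were lower, where 26.6% of measured genes were higher and 20.1% lower. That was Hmox1, with 1456 CPM in the 25 cells and 677 CPM in the 1354 cells with 0 (2.16-fold, 1.84 to 2.50). These cells were spread unequally over the clusters: 12 of the 25, but 272 of the 1354 (20.1%), were Stfa3-led, the cluster with high Hmox1 and Fth1, and the part of this in the difference was not tested. Fth1 was 1.47-fold (1.42 to 1.52) and Blvrb 1.39-fold as high there. These splits within and outside the cluster were added after the data were seen.

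**Figure D5:**
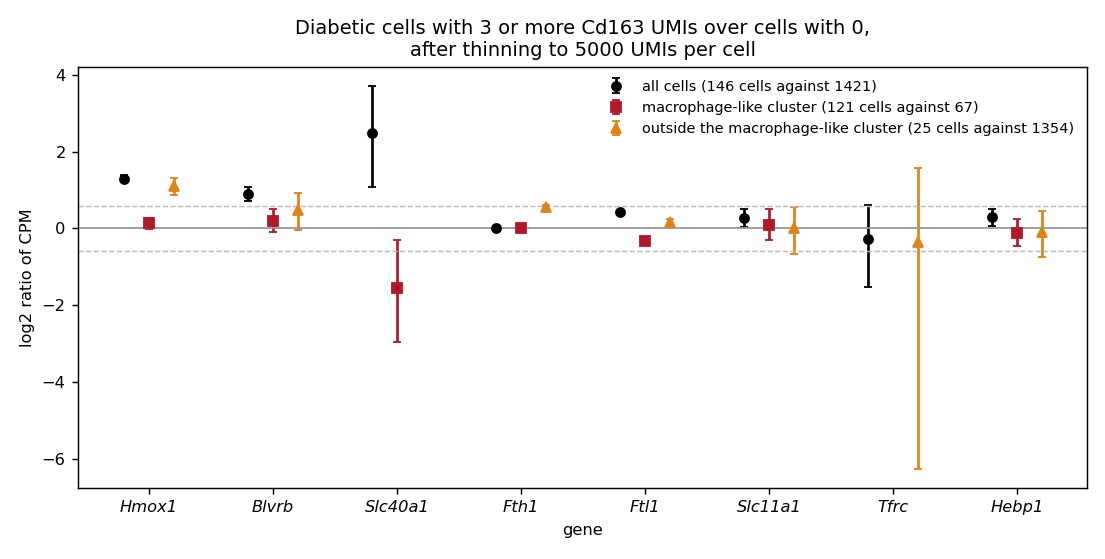
Log2 ratio of CPM, diabetic cells with 3 or more thinned Cd163 UMIs over those with 0, for the other 8 members, in all cells, within the macrophage-like cluster and outside it; bars are 95% intervals of counting error, the solid line is 0, the dashed lines are 1.5-fold, and pairs with fewer than 20 UMIs are left out. Hmox1 and Blvrb lie above the upper dashed line over all cells (2.46-fold and 1.86-fold) and near 0 within the cluster (1.09-fold and 1.15-fold).

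A finer clustering at resolution 2 parted the macrophage-like cells into cells led by Tmem8, Folr2 and Ltc4s (128 diabetic, 9 non-diabetic) and cells led by Ccl8, Gas6 and Igf1 (75 diabetic, 18 non-diabetic). In diabetic cells Cd163 had 1907 CPM (1857 to 1958) in the Tmem8-led and 471 CPM (437 to 507) in the Ccl8-led cells. Slc40a1 went the other way in summed level, with 9.97 CPM (6.68 to 14.3) in the Tmem8-led and 53.7 CPM in the Ccl8-led cells. Few cells carry this: 5 diabetic macrophage-like cells held 75 of the 110 Slc40a1 UMIs of their cluster, a spread the interval leaves out. The Ccl8-led cells also had more Ftl1, at 19635 CPM against 15071 CPM in the Tmem8-led cells, and their Hmox1 was at 2209 CPM. Their 18 non-diabetic cells had 198 CPM of Cd163, 3506 CPM of Hmox1, 56.5 CPM of Slc40a1 (14 UMIs) and 40.4 CPM of Hebp1. Between the libraries, Hmox1 and Blvrb differed in opposite directions in these parts. In the Tmem8-led cells Hmox1 had 2038 CPM in diabetic and 1077 CPM in the 9 non-diabetic cells, and Blvrb 490 and 203 CPM. In the Ccl8-led cells both were lower in diabetic cells, Hmox1 at 2209 and 3506 CPM and Blvrb at 455 and 614 CPM. The non-diabetic cells are few, and the difference was not tested. Of the diabetic macrophage-like cells with a Slc40a1 UMI, 16 of 22 had a Cd163 UMI (72.7%), beside 73.0% of all diabetic cells of the cluster.

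Across the 18 groups of cells, which share their 2 libraries, Pearson's r of log2(CPM + 10) with Cd163 was 0.85 for Slc40a1, 0.57 for Blvrb, 0.55 for Hmox1, 0.48 for Hebp1, 0.43 for Ftl1, 0.29 for Fth1, 0.22 for Slc11a1 and 0.12 for Tfrc. Without the diabetic macrophage-like group it was 0.45 for Slc40a1 over the remaining 17, so the 0.85 rested largely on 1 group. Over the same 17 it was 0.48 for Hebp1, 0.41 for Blvrb, 0.39 for Hmox1 and 0.22 or less for the other members. Spearman's rho over the 18 groups was 0.48 for Hebp1, 0.40 for Blvrb, 0.33 for Slc40a1, 0.30 for Hmox1 and 0.29 for Tfrc. It was 0.16 for Ftl1, 0.05 for Slc11a1 and -0.03 for Fth1, so the order of the members depended on the measure. The 18 groups mix both libraries, so a difference between the libraries also enters these values. Over the 11 diabetic groups alone, Pearson's r was 0.88 for Slc40a1, 0.76 for Hmox1, 0.55 for Ftl1 and 0.50 for Blvrb. It was 0.49 for Fth1, 0.30 for Hebp1, 0.29 for Slc11a1 and 0.01 for Tfrc. Across the 1661 thinned diabetic cells Spearman's rho was 0.24 for Hmox1, 0.23 for Blvrb and 0.19 for Ftl1, and between -0.02 and 0.14 for the rest, all weak. Across the 210 of these cells in the macrophage-like cluster rho was 0.23 for Hmox1, 0.13 for Blvrb and -0.14 for Ftl1. For the rest it lay between -0.05 and 0.16 there. Among 4675 genes ranked by r over the 18 groups, members left out, the 8 most like Cd163 were Tmem8 (0.89), B4galt6 (0.85), Ube2q2 (0.84), the scavenger receptor gene Marco (0.84), the endocytic scaffold gene Itsn1 (0.83), the chemokine gene Ccl8 (0.82), Zdhhc14 (0.82) and Gas6 (0.82), which encodes a ligand of the receptors for dying cells. Marco had 103 CPM in the diabetic macrophage-like cells and a median of 0 CPM over the groups. Without the macrophage-like group r was 0.65 for Tmem8, 0.80 for B4galt6, 0.62 for Marco and 0.28 for Ccl8.

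The members were set beside 66 further genes in 10 lists, of which 56 were measured; among these 19 were higher and 2 lower in diabetic cells. The heme and iron lists, 8 in number, hold 51 genes of heme and iron metabolism and its regulators, and the remaining lists hold antioxidant response targets and glucocorticoid-induced genes. Of the 41 heme and iron genes measured, 14 were higher and 1 lower, with a median log2 ratio of 0.34, beside 18.7% higher, 12.9% lower and a median of 0.12 over all measured genes. In heme uptake and transport 3 of 6 were higher and 0 lower: Hp, haptoglobin, had 1321 CPM in diabetic cells against 421 CPM in non-diabetic cells (3.14-fold), Slc48a1, a heme transporter of the lysosome, 120 and 57.5 CPM (2.08-fold), and Abcg2, 6.57 and 1.75 CPM. Lrp1, the receptor of hemopexin-bound heme, had 408 CPM in diabetic cells against 324 CPM in non-diabetic cells. Both other genes of heme breakdown were short of 1.5-fold: Blvra, biliverdin reductase A, had 77.9 CPM in diabetic cells against 55.5 CPM in non-diabetic cells, and Hmox2, 97.1 and 108 CPM. In heme synthesis 2 of 8 were higher, Fech and Uros (16.3 and 3.19 CPM in diabetic, 9.07 and 2.01 CPM in non-diabetic cells), and 1 was lower, Cpox (6.31 and 9.46 CPM), with Alas1, the entry enzyme, at 81.6 CPM in diabetic cells against 76.2 CPM in non-diabetic cells.

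In iron uptake 5 of 7 were higher and 0 lower, beside 18.7% and 12.9% of all measured genes. The siderophore-binding gene Lcn2 had 520 CPM in diabetic cells against 33.1 CPM in non-diabetic cells (15.7-fold), Slc39a14 93.4 and 49.0 CPM (1.90-fold), and Slc11a2, the ferrous iron transporter, 20.3 and 12.1 CPM (1.68-fold); the others were Steap4 and Slc39a8, from 123 and 40 UMIs in diabetic and 13 and 11 UMIs in non-diabetic cells. Lcn2 was a leading gene of the Stfa3-led cluster, which held 324 diabetic and 1 non-diabetic cells. A Lcn2 UMI was found in 31.7% of diabetic and 13.1% of non-diabetic cells. In iron storage and release 0 of 5 were higher or lower. Of 1 measured gene of iron export, Cp, the ferroxidase ceruloplasmin, was higher, with 67 UMIs in the diabetic and 10 in the non-diabetic library. Of 4 regulators of the iron response, 1 was higher and 0 lower: Fbxl5, which targets iron regulatory protein 2 for destruction when iron is ample, had 368 CPM in diabetic cells against 109 CPM in non-diabetic cells (3.37-fold), while Ireb2, iron regulatory protein 2 itself, had 29.0 and 20.4 CPM.

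Among 8 transcription factors 2 were higher and 0 lower, Spic and Nr1h3, at 6.14 and 17.9 CPM in the diabetic and 2.33 and 8.81 CPM in the non-diabetic library. Nfe2l2, which drives Hmox1 and the ferritins under oxidative stress, had 322 CPM in diabetic cells against 430 CPM in non-diabetic cells. Among 8 antioxidant response targets, genes of the same factor, 4 were higher and 0 lower: Gclm had 149 CPM in diabetic cells against 47.2 CPM in non-diabetic cells (3.16-fold), Prdx1 1687 and 656 CPM (2.57-fold), Gclc 55.6 and 29.3 CPM (1.90-fold) and Nqo1 2.89 and 0.454 CPM. Of 7 genes known to be induced by glucocorticoids, as Cd163 is, 1 was higher and 1 lower: Ms4a7, also a macrophage marker, had 228 CPM in diabetic cells against 79.3 CPM in non-diabetic cells, and Zfp36 had 879 and 1391 CPM. That list had a median log2 ratio of -0.11.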

How the data were processed

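Single-cell 3′ RNA libraries were made from 1 pool of diabetic and 1 pool of non-diabetic wound cells, and groups follow the disease state in the labels. The values deposited are unnormalized UMI counts of each gene in each barcode; they come from Cell Ranger 3.0.2 (per the file headers) and build mm10 (per the submitters' processing notes), and no annotation release is given in the sources used here. Whole libraries held 31730014 UMIs in the diabetic and 17559986 in the non-diabetic matrix.

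Counts were summed per library or cluster and given as CPM with exact Poisson intervals, shares with Clopper-Pearson intervals, and log2 ratios with 0.5 added to each count and a conditional exact binomial interval. In Poisson sums simulated for diabetic over non-diabetic, the ratio interval covered the truth in 95.8% of 12148 genes left unchanged, which checks the calculation only. Clustering used scanpy 1.11.5 and leidenalg 0.10.2 (2000 variable genes chosen within each library, 30 components, 15 neighbours, resolution 1, no batch correction). A cluster was named where at least 3 markers and 50% of a list were 2-fold or more above the remaining cells and read in 10% of its cells or more, a rule set after the data were seen. Scrublet marked 4 diabetic and 2 non-diabetic cells, too few for the caller to have worked, and none were removed, so doublets may remain. Near copies were sought with BLAST 2.17.0. Alternative scalings used edgeR 4.0.16 and DESeq2 1.42.0 in R 4.3.3, with Python 3.11.15 elsewhere.

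The members and lists were chosen with earlier results of these data known. Named besides the members are up to 3 genes per list with the largest ratio among those at 20 CPM or more, the 8 genes likest Cd163 (at 50 CPM or more in a group) and leading genes of clusters. The other genes behind a count of 5 or fewer (Abcg2, Fech, Uros, Cpox, Steap4, Slc39a8, Cp, Spic, Nr1h3 and Nqo1) and the marker genes were named after their values were seen.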

Additional observations from a re-analysis of the deposited data

Results flagged for a closer look

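Hmox1 differed in opposite directions in clusters that hold cells of both libraries: its log2 ratio of diabetic over non-diabetic was 1.74 within the conventional dendritic cell-like cells (62 diabetic and 121 non-diabetic cells) and -1.11 within the Ifit3-led cells (35 diabetic and 106 non-diabetic cells). The difference between the clusters was not tested, since each library is 1 sample.

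The barcodes left out by the cell filter, 459 diabetic and 903 non-diabetic, entered the comparisons above only in the alternative without that filter. In these barcodes alone 4 of the 9 members were at least 1.5-fold higher in the diabetic library and 0 were lower, beside 20.7% and 18.2% of measured genes. The log2 ratio there was 3.87 for Cd163 (449 CPM in diabetic and 30.5 CPM in non-diabetic barcodes), 3.37 for Hebp1 (60.2 and 5.63 CPM), 1.09 for Tfrc (37.1 and 17.4 CPM) and 1.07 for Blvrb (138 and 65.7 CPM). Slc11a1 went the other way, short of 1.5-fold, with a log2 ratio of -0.32 (139 CPM in diabetic and 174 CPM in non-diabetic barcodes). In either library Cd163 had a higher level in the barcodes left out than in the kept cells.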

How the results depend on the processing

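No paired analysis was possible because each group has 1 library. Of the members, Cd163, Blvrb, Hebp1 and Slc40a1 stayed at least 1.5-fold higher in the diabetic library under all 12 alternatives tried, with log2 ratios of 4.23 to 5.93, 1.19 to 1.68, 4.42 to 4.80 and 1.39 to 2.72. Hmox1 did so under 5 of 12, from 0.27 with the mean of per-cell CPM to 1.61 without the clusters over 90% from 1 library, and Tfrc under 9 of 12, down to 0.35 with each cell thinned to 5000 UMIs. Scaling by TMM or DESeq2 size factors lowered the median of all genes by 0.11 and 0.12. The count of higher members was 4 to 7. Without the Stfa3-led cluster 1 member, Fth1, was lower. With no minimum of UMIs 4688 genes were higher and 3916 lower. With the stricter cell filter 1 gene of the wider lists was lower. The cluster with most diabetic Cd163 UMIs held 83.9% of them when the members and lists were among the variable genes, 84.4% at resolution 0.5 and 74.96% at resolution 2. Hebp1 was higher in 2 of 2 comparable clusters at resolution 2 and in 7 of 7 when 10 cells per library sufficed. The members higher beside Cd163 numbered 0 within and 1 outside the macrophage-like cluster, and 2 when cells were thinned to 2000 UMIs. The cause of these shifts was not tested. Alternatives on the Stfa3-led and Inhba-led clusters, on 10 cells, and within and outside the macrophage-like cluster were chosen after seeing the data.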
